A study of Mus musculus with 22 samples.

Results

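The genes described here are the Rab GTPases, the TBC proteins and the class V myosins of adult mouse choroid plexus (ChP), the epithelial sheet in the brain ventricles that secretes cerebrospinal fluid. They were chosen by symbol, as protein-coding genes named Rab followed by a digit, Tbc1d or Myo5, together with Myrip and Mlph. The rule took 104 of the 33964 genes in the series, of which 69 are Rab genes or proteins named after a Rab, 30 are TBC genes and 5 are myosin V genes or their adaptors. Rab proteins are small GTPases that mark membrane compartments when loaded with GTP and recruit tethers, motors and coat factors to them. Most proteins with a TBC domain act as GTPase-activating proteins, which switch Rabs off by speeding GTP hydrolysis. Class V myosins are actin motors that carry Rab-bearing vesicles, and in polarized epithelia this machinery sorts membrane proteins to the apical and basolateral surfaces and moves secretory cargo.

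RNA was sequenced from 14 pools of ChP, with 2 pools (A and B) in each of 7 groups, to ask which transcripts depend on the homeoprotein Otx2. In the conditional model, mice of strain S129 carried Otx2 lox/lox alleles. At 3 months of age they received Cre-Tat, a cell-penetrating recombinase with no cell type promoter, or vehicle. Injections were made into the lateral ventricles only. ChP of the lateral ventricles (LV) and of the fourth ventricle (4V) was taken apart 15 days later, from pools of 5 Cre-Tat mice and 4 vehicle mice. In the constitutive model, on the B6D2 strain, 4V ChP came from wildtype mice, from heterozygotes labelled Otx2 (+/-) and called Otx2+/GFP in the study, and from mice labelled Otx2 (+/AA), an allele that the labels do not describe. Heterozygote and wildtype pools came from 4 and 5 mice aged 3 months, and whether these are numbers per pool is not stated. The heterozygotes lack 1 Otx2 copy in every cell throughout life. The age and number of the Otx2+/AA mice were not given in the sources used here.

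Pools held 22750019 to 50088408 counts. Each gene was represented by 1 transcript, and members took 0.333% to 0.499% of the counts on these transcripts. That sum is also the library size used for levels below. Levels are given as CPM, a pool's counts of a gene relative to its library size, with library sizes scaled by the trimmed mean of M values over all 14 pools, and differences as log2 fold changes with standard error (SE) from edgeR's quasi-likelihood test, with p values adjusted (Benjamini-Hochberg) over all genes tested and a threshold of 0.05. In the conditional model 14 of 16 files carried a library number other than that of the sample they were attached to, and pools were assembled by library number. Between 2 files of 1 library number, transcript counts differed by a chi-square of 1.001 to 1.033 per degree of freedom (8 pairs). Between 2 files attached to 1 pool it was 12.2 to 18.67 (8 pairs). Otx2 counts over the whole transcript were 303 to 469.5 CPM in the vehicle, wildtype and Otx2+/AA pools and 886 to 1235.5 CPM in the pools labelled Cre-Tat or Otx2+/GFP, opposite to those labels, so every direction below is between pools as labelled. In its sequencing data the study assessed the knockdown on a single exon of Otx2 (exon 2). It reported fewer reads of that exon with the Cre-Tat label in both ventricles and in Otx2+/GFP. It also checked by qPCR, on a small sample of each ChP, that Otx2 was lower on average after Cre-Tat. For lower OTX2 protein in both models it cites earlier work. Counts per transcript do not separate the exon, so the count over the whole transcript does not test its loss. The epithelial marker Ttr, the main secreted protein of ChP, was at 61110 to 185370 CPM, while the T cell marker Cd3e reached 0.326 CPM and the B cell marker Cd79a 0.199 CPM. In bulk tissue, fewer cells of a type and less RNA per cell cannot be told apart.

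Of the 104 members, 84 had at least 1 CPM in every pool, 10 stayed under 1 CPM in every pool and 1, Tbc1d21, had no count at all. Between 93 and 95 members passed the filter on low counts in each comparison of 2 groups, and 8 passed it in none. Levels of different genes are compared only per kb of transcript, averaged over the vehicle LV, vehicle 4V and wildtype pools. Tbc1d9, a TBC protein with calcium-binding EF-hand motifs, was highest at 157 CPM per kb. It was followed by Rab2a at 60.9, which acts between the endoplasmic reticulum and the Golgi, and by Rab5c at 46.7, an early endosome Rab. Rab3ip (Rabin8), the exchange factor that activates Rab8 on the way to the primary cilium and the apical membrane, had 43.4 CPM per kb. Rab1a of the early secretory pathway stood at 34.1, and Rab3gap1, the catalytic subunit of the Rab3 GTPase-activating complex, at 31.97. Rab11a, Rab18, Rab10 and Myrip, the first for recycling endosomes, the second for lipid droplets and the endoplasmic reticulum, the third for exocytic carriers and the last an adaptor between Rab27a and myosins, lay between 28.3 and 30.5 CPM per kb. Of these 10 genes, 7 were among the first 10 in each of the 3 control groups.

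**Figure D1:**
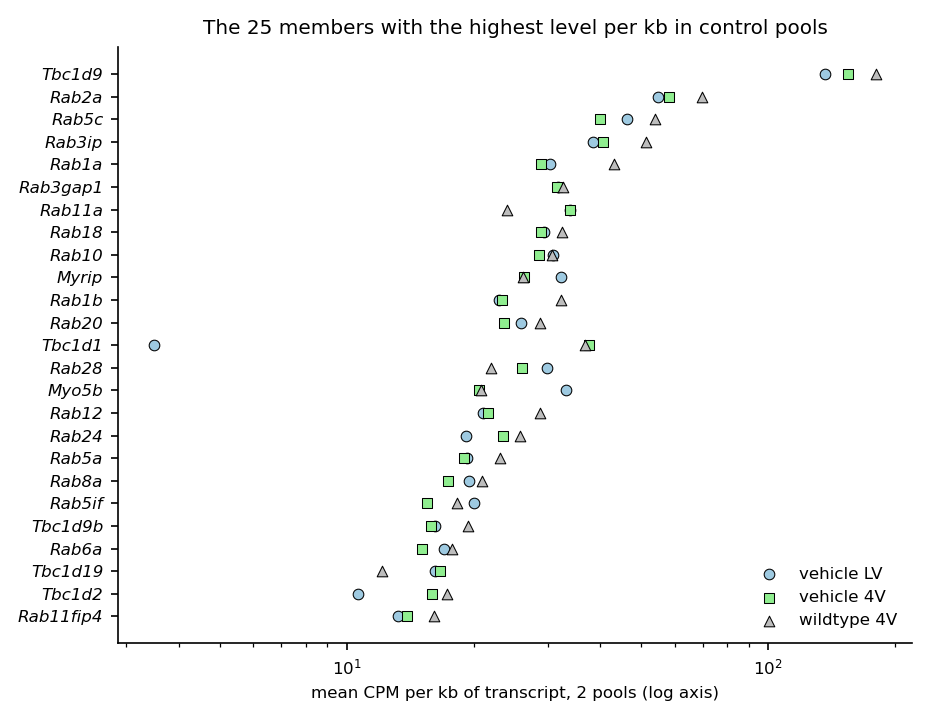
Mean CPM per kb of transcript (log axis) for the 25 members with the highest level in control pools, with 1 symbol for each group of 2 pools (vehicle LV, vehicle 4V, wildtype 4V). Tbc1d9 lies above all others at 137 to 180 CPM per kb, and Tbc1d1 is the gene whose LV symbol lies far from its 4V symbols.

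Within families, 1 member usually held most of the level. Rab11a had 97.0% of the summed level per kb of the Rab11 subfamily, Rab11b 3.02% and Rab25, its epithelial member, 0.0255%, with 1 count in each of 3 pools and none in the other 11. Among the early endosome Rabs, Rab5c held 68.1%, Rab5a 29.8% and Rab5b 2.04%. Among the Rab3 proteins of regulated secretion, Rab3a held 84.5% and Rab3d 14.6%, while Rab3b and Rab3c together held less than 1%. Rab8a, which acts in apical delivery, stood at 19.3 CPM per kb and its close relative Rab8b at 8.91. The secretory granule Rabs were low, with Rab27a at 0.701 and Rab27b at 0.188 CPM per kb, and Mlph, the adaptor that joins Rab27a to Myo5a on melanosomes, never passed 0.596 CPM. The late endosome Rab7 was at 4.07 CPM per kb. Rab genes have close paralogs, and how the study counted reads that fit several genes is not given in the sources used here, so the split within a family is uncertain.

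The 3 class V myosins were all present. Myo5b, the partner of Rab11 in apical recycling, held 54.0% of their summed level per kb in control pools, Myo5c of exocrine and other glandular epithelia 24.5% and Myo5a, the motor of melanosomes and neuronal vesicles, 21.5%. Pool by pool, the share of Myo5b was 61.0% in both vehicle LV pools and 46.95% to 53.2% in the vehicle and wildtype 4V pools. With the Cre-Tat label it was 48.9% and 56.0% in LV and 34.1% and 33.7% in 4V, and it was 25.6% and 24.2% in the Otx2+/GFP pools. In these last 4 pools no class V myosin held more than 39.4%.

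Over the 4 comparisons between a labelled genotype or treatment and its control, few members passed the test. In 4V ChP, 9 of 93 members tested were called between pools labelled Cre-Tat and vehicle (2 higher, 7 lower), or 9.68%, beside 10.7% of all genes tested (5.70% higher, 4.99% lower). That balance depended on the scaling, since with total counts 5 members were higher and 5 lower, beside 1321 genes higher and 426 lower where TMM gave 828 and 726. In the Otx2+/GFP comparison 6 of 93 were called (1 higher, 5 lower), or 6.45%, beside 3.53% of all genes (1.79% higher, 1.74% lower). In LV ChP 1 of 95 was called, as higher, beside 3.24% (2.21% higher, 1.03% lower). In the Otx2+/AA comparison 1 of 94 was called, as higher, beside 0.345% (0.173% in each direction). With 2 pools against 2, an exact permutation test of a single gene cannot go below p = 0.333, and the p values here come from the fit across genes. The Otx2+/GFP and Otx2+/AA comparisons share their wildtype pools. Median log2 fold changes of the members were -0.02 in LV, 0.03 in 4V, 0.01 in Otx2+/GFP and -0.01 in Otx2+/AA, against medians of all genes between -0.01 and 0.01, and 80 members tested stayed within 0.5 of 0 in each of the first 3. Groups did not overlap in CPM for 37 members in LV, 51 in 4V and 47 in Otx2+/GFP, or 38.9%, 54.8% and 50.5% of those tested, where the shares of all genes were 42.5%, 50.4% and 49.1%. In Otx2+/AA they did not overlap for 40, or 42.6%, beside 38.1% of all genes.

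**Figure D2:**
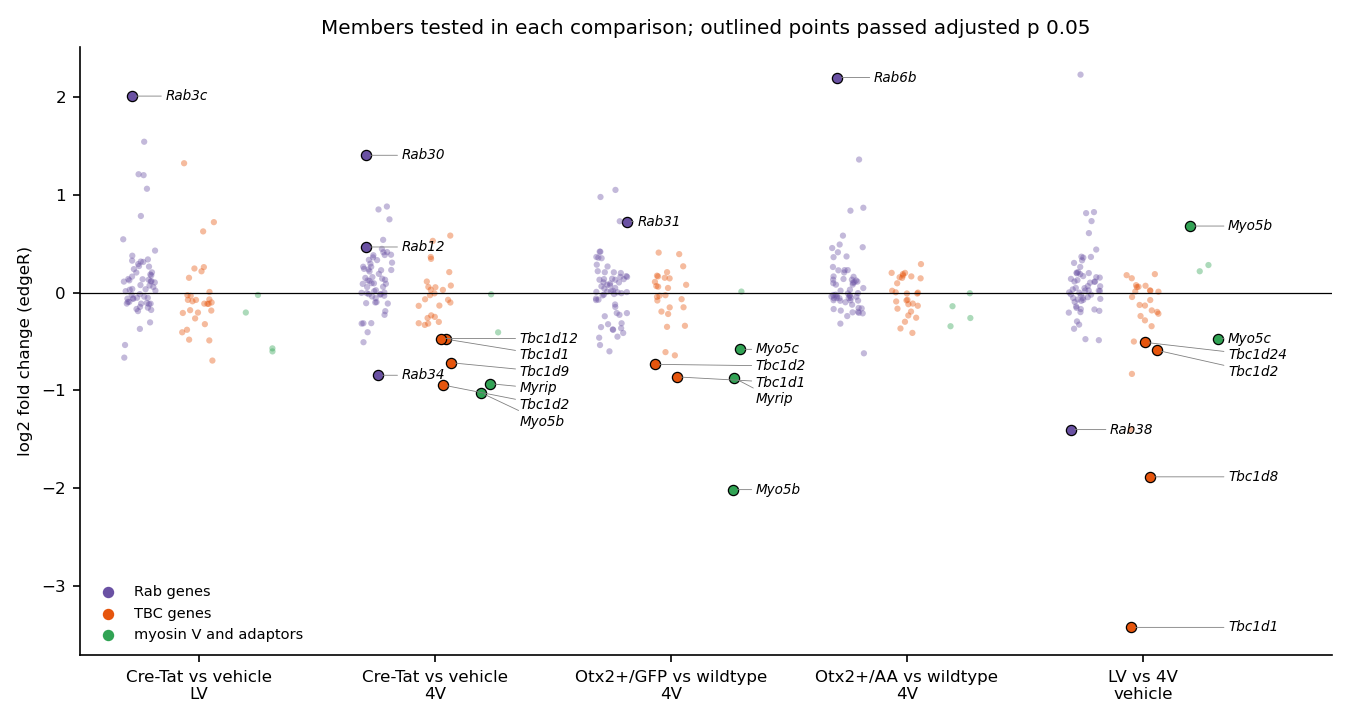
Log2 fold change (vertical axis) of every member tested in each of 5 comparisons, with Rab genes, TBC genes and myosin V genes with adaptors side by side and horizontal scatter added for visibility. Outlined and named points passed an adjusted p of 0.05, and in the Cre-Tat 4V and Otx2+/GFP comparisons all but Rab12, Rab30 and Rab31 among them lie below 0.

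Of the myosin V genes and adaptors 4 were tested, of which 2 fell in 4V and 3 fell in Otx2+/GFP, with a median log2 fold change of -0.67 and -0.73. Among all genes tested, 4.99% were called lower in 4V and 1.74% in Otx2+/GFP. In LV edgeR called none, with a median of -0.39, 2 with an unadjusted p under 0.05 and 2 calls by DESeq2. In Otx2+/AA edgeR called none, with a median of -0.20, 1 with an unadjusted p under 0.05 and 0 calls by DESeq2. The fifth, Mlph, did not pass the filter.

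Myo5b (ENSMUSG00000025885, GRCm38 chr18:74440936-74771493, plus strand) fell in both 4V comparisons. Its level was 137 and 140.1 CPM in the vehicle 4V pools against 63.1 and 73.2 CPM in those labelled Cre-Tat, a 2.03-fold lower level (log2 fold change -1.02, SE 0.13, edgeR adjusted p = 6.8e-05). In the constitutive model it was 139.8 and 141 CPM in wildtype and 37.7 and 31.8 CPM in Otx2+/GFP pools, 4.04-fold lower (log2 fold change -2.01, SE 0.13, edgeR adjusted p = 0.00039). Groups did not overlap in either case, and this was the largest decrease of any member between a knockdown label and its control. The 2 decreases differed by -0.98 on the log2 scale (SE 0.18, edgeR adjusted p = 0.016 for the interaction), with the larger one in Otx2+/GFP. That call is lost without either vehicle 4V pool (adjusted p = 0.094 without A, 0.082 without B) or without wildtype pool B (0.054). Model, strain and sequencing run changed together and cannot be told apart.

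In LV ChP Myo5b was at 216 and 230 CPM with vehicle and at 134 and 160 CPM with the Cre-Tat label, with no overlap, but the difference missed the threshold (log2 fold change -0.60, SE 0.16, edgeR adjusted p = 0.065). DESeq2 called it at an adjusted p of 0.010. Its difference from the 4V change was -0.42 (SE 0.21, edgeR adjusted p = 1.00 for the interaction). The Otx2+/AA pools held 125 and 111 CPM, each below both wildtype pools (log2 fold change -0.26, SE 0.13, adjusted p = 0.62). The files list 10 Myo5b transcripts, which share reads, and all 10 were lower in the pools labelled Cre-Tat of both ventricles and in Otx2+/GFP. Myo5b, Myrip and Tbc1d2 are in the study's own list of genes lower in LV, 4V and Otx2+/GFP. That list comes from these same samples, so it is not independent evidence of their direction. The study thus called them in LV as well, where edgeR here missed the threshold for each and DESeq2 called each. The list also marks Myo5b and Myrip as changed in a separate, earlier microarray study of hindbrain ChP with Otx2 lowered in the embryo.

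Myo5c (ENSMUSG00000033590, chr9:75232020-75305451, plus strand) fell in Otx2+/GFP, from 80.5 and 73.7 CPM to 51.5 CPM in both pools (log2 fold change -0.58, SE 0.11, edgeR adjusted p = 0.027). This call is lost without wildtype pool A (adjusted p = 0.086) and with counts summed over transcripts (0.058). In 4V it was 89.0 and 84.8 CPM with vehicle and 60.6 and 70.3 CPM with the Cre-Tat label and missed the threshold (log2 fold change -0.41, SE 0.13, adjusted p = 0.063), while without Cre-Tat pool B it passed (adjusted p = 0.029). In LV its 4 pools lay between 53.2 and 65.1 CPM.

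Myo5a, by contrast, overlapped between groups in all 3 comparisons. It was 134 and 142 CPM against 145 and 126 in LV, 109 and 127 against 106 and 127 in 4V, and 95.4 and 87.5 against 101 and 83.3 in Otx2+/GFP. The log2 fold changes were -0.02 (SE 0.16), -0.02 (SE 0.14) and 0.01 (SE 0.13), so that no change was detected at this precision.

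Myrip (ENSMUSG00000041794, chr9:120301513-120474841, plus strand), the adaptor between Rab27a and myosin, fell in both 4V comparisons. The vehicle and wildtype 4V pools lay between 127 and 131 CPM, the pools labelled Cre-Tat at 67.5 and 68.1 CPM and the Otx2+/GFP pools at 68.0 and 72.4 CPM. The log2 fold changes were -0.93 (SE 0.13, edgeR adjusted p = 0.00013) and -0.87 (SE 0.11, edgeR adjusted p = 0.0040), and their difference was 0.07 (SE 0.16). In LV the pools were at 150.2 and 166 CPM with vehicle and 100.4 and 112 CPM with the Cre-Tat label (log2 fold change -0.57, SE 0.16, adjusted p = 0.075, and 0.015 by DESeq2). The Otx2+/AA pools, at 105 and 98.9 CPM, also lay under both wildtype pools (log2 fold change -0.34, SE 0.13, adjusted p = 0.38).

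**Figure D3:**
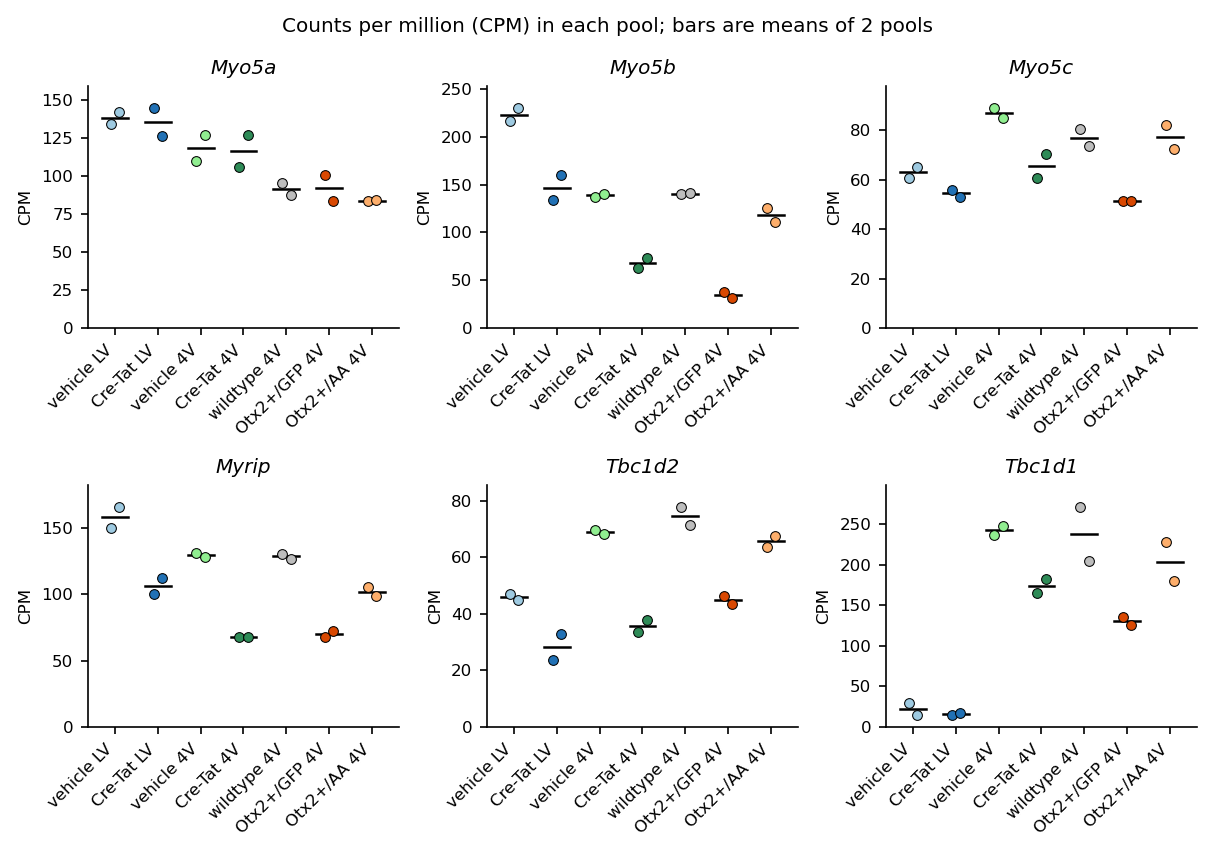
CPM in each pool (points) and the mean of the 2 pools (bars) for Myo5a, Myo5b, Myo5c, Myrip, Tbc1d2 and Tbc1d1 in the 7 groups. Myo5b, Myrip and Tbc1d2 are lower with the Cre-Tat label in both ventricles and in Otx2+/GFP, Myo5a overlaps between the groups of each of these 3 comparisons, and Tbc1d1 is under 31 CPM in all 4 LV pools.

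Of the 30 TBC genes, 29 were tested in 4V, where 4 fell and none rose, and 28 in Otx2+/GFP, where 2 fell and none rose. Of all genes tested, 4.99% were called lower and 5.70% higher in 4V, and 1.74% and 1.79% in Otx2+/GFP. The TBC genes had median log2 fold changes of -0.07 and -0.03. Tbc1d2 (Armus, ENSMUSG00000039813, chr4:46604390-46650209, minus strand), a GTPase-activating protein for Rab7, fell in both. It went from 69.6 and 68.1 to 33.5 and 37.9 CPM in 4V (log2 fold change -0.95, SE 0.13, edgeR adjusted p = 0.00014) and from 77.7 and 71.4 to 46.1 and 43.5 CPM in Otx2+/GFP (log2 fold change -0.73, SE 0.11, edgeR adjusted p = 0.010). In LV it was 47.0 and 44.8 CPM with vehicle and 23.7 and 32.9 CPM with the Cre-Tat label (log2 fold change -0.69, SE 0.18, adjusted p = 0.052), and DESeq2 called it (adjusted p = 0.024). Rab7, its substrate, stayed between 3.80 and 14.5 CPM over all pools and was called in none of the comparisons.

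Tbc1d1 (ENSMUSG00000029174, chr5:64156305-64351486, plus strand), a Rab GTPase-activating protein known for its part in glucose transporter traffic in muscle, fell in both 4V comparisons as well. It went from 237.6 and 248 to 165 and 183 CPM with the Cre-Tat label (log2 fold change -0.48, SE 0.13, edgeR adjusted p = 0.028) and from 272 and 205 to 136 and 126 CPM in Otx2+/GFP (log2 fold change -0.86, SE 0.15, edgeR adjusted p = 0.018). The first call is lost without vehicle pool A (adjusted p = 0.17), vehicle pool B (0.21) or Cre-Tat pool A (0.10), and with scaling by total counts (0.18). That call held under 7 of 12 alternatives in all. In LV the groups overlapped, with 30.1 and 15.1 CPM for vehicle and 15.2 and 17.1 CPM for Cre-Tat.

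Tbc1d9 (ENSMUSG00000031709, chr8:83165352-83272934, plus strand) fell in one model and missed the threshold in the other. In 4V it fell from 779 and 870.1 to 478 and 522.6 CPM with the Cre-Tat label (log2 fold change -0.72, SE 0.15, edgeR adjusted p = 0.0039), a call lost without vehicle pool B (adjusted p = 0.058). In the constitutive model it was 928 and 994 CPM in wildtype and 1149.8 and 1003 CPM in Otx2+/GFP, so that these groups did not overlap but the difference missed the threshold (log2 fold change 0.17, SE 0.13, adjusted p = 0.55). The difference between the 2 responses was 0.90 (SE 0.19, edgeR adjusted p = 0.033 for the interaction). Without any 1 of 7 of the 8 pools in that fit the call is lost (adjusted p = 0.053 to 0.17), and it holds without Otx2+/GFP pool B (0.025). Scaling by total counts also ends it (0.064). An antisense gene overlaps it, and the strand used in counting is not stated. Tbc1d12, a Rab11-binding protein of recycling endosomes, fell in 4V from 49.6 and 46.5 to 32.9 and 36.4 CPM (log2 fold change -0.47, SE 0.14, edgeR adjusted p = 0.032). That call held under 5 of 12 alternatives, and its adjusted p was 0.072 by DESeq2, 0.19 with total counts, 0.12 without Cre-Tat pool A, 0.29 without vehicle pool A and 0.092 without vehicle pool B.

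Promoter sequence was read for Myrip, Tbc1d2 and Tbc1d1, which fell in both 4V comparisons, and for Myo5c, which fell in Otx2+/GFP, since a match to the letters bound by Otx2 could be looked for there. RefSeq windows of 300 bases, from 250 before to 50 after each start (GRCm38.p6), were found for 83 of the 104 members, with 108 windows in all, and none for Myo5b. The RefSeq starts of Myrip, Tbc1d2, Tbc1d1 and Rab3ip lie inside the spans of these genes in the annotation used for the counts. The 150 bases before the start are shown for Myrip (chr9:120303923-120304072, plus strand), Tbc1d2 (chr4:46650200-46650349, minus strand), the upstream and the internal start of Tbc1d1 (chr5:64160110-64160259 and chr5:64230207-64230356, plus strand) and Myo5c (chr9:75231864-75232013, plus strand), 5′ to 3′ on the gene's strand, with GGGCGG and its reverse complement CCGCCC, the core of the GC box bound by Sp1, in capitals.
Myrip: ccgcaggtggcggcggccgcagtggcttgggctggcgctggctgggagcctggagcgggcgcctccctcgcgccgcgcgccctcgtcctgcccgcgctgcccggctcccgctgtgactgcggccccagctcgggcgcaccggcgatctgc
Tbc1d2: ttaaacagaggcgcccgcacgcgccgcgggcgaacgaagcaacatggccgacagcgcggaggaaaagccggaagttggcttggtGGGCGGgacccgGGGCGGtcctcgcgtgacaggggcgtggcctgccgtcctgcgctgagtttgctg
Tbc1d1 upstream: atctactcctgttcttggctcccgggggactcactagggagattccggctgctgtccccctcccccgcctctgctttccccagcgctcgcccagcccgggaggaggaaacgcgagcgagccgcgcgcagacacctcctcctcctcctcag
Tbc1d1 internal: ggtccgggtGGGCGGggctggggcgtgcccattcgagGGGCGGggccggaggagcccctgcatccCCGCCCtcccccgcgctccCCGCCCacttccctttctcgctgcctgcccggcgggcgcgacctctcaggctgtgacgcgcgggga
Myo5c: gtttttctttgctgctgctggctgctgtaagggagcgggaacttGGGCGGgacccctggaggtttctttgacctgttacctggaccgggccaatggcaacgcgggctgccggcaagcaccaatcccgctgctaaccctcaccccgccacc

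The GC box core stood 4 times in the internal Tbc1d1 stretch, 2 times in Tbc1d2, once in Myo5c and not in the other 2 stretches. Over whole windows it was in 69.4% of member windows and 35.7% of all 32851 promoters. The letters TAATCC, searched on both strands, are the core that bicoid-type homeodomains such as that of Otx2 are known to bind. They were in 5 of 108 member windows (4.63%), beside 7.06% of all promoters, and in none of the windows of the genes above. The 4 members with a match were Rab3ip, Rab42, Rab43 and Tbc1d23, of which none was called in any comparison. In Rab3ip the match lies in this stretch of 60 bases before the start (chr10:116950560-116950619, minus strand), with GGATTA, the same letters read from the other strand, in capitals.
Rab3ip: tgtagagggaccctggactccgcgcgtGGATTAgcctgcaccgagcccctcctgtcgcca
Rab3ip was at 108 and 109.9 CPM in vehicle and 103 and 98.6 CPM in Cre-Tat 4V pools (log2 fold change -0.11, SE 0.13, adjusted p = 0.71), and at 134 and 142 CPM in wildtype and 106 and 116 CPM in Otx2+/GFP pools (log2 fold change -0.31, SE 0.11, adjusted p = 0.19). Neither pair of groups overlapped, and neither difference passed the threshold. A match is a description of letters in a window and does not show binding.

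Markers of cell types also differed between the groups of these comparisons, with fewer epithelial and macrophage markers called in Otx2+/GFP than in 4V. Of 7 epithelial markers, 6 (all but Otx2) were lower with the Cre-Tat label in 4V, 2 in LV (Aqp1, Kcne2) and 2 in Otx2+/GFP (Folr1, Ttr), and Otx2, the seventh, was higher in all 3. The rest were not called in Otx2+/GFP, with log2 fold changes of -0.60 (Aqp1), -0.27 (Kl), 0.11 (Kcne2) and 0.05 (Clic6). The sums that follow are of all 7 epithelial markers. Their summed level was 144698 to 174273 CPM in vehicle 4V and 65565 to 78025 CPM in Cre-Tat 4V pools, 145205 to 154232 CPM in wildtype and 82940 to 95900 CPM in Otx2+/GFP pools, and 183765 to 192065 CPM against 99915 to 139663 CPM in LV. Of 6 macrophage markers, 5 were higher with the Cre-Tat label in 4V, 2 in LV and 1 in Otx2+/GFP, with summed levels of 68.7 to 74.3 against 124 to 182 CPM in 4V, 84.3 to 113 against 177 to 222 CPM in LV and 109 to 121 against 123 to 127 CPM in Otx2+/GFP. Ttr made up 92.1% to 96.7% of the epithelial sum in every pool. The 5 epithelial markers other than Ttr and Otx2 summed to 5613 to 5704 CPM in vehicle 4V against 3005 to 3232 CPM in Cre-Tat 4V, 5764 to 6226 against 4038 to 4126 CPM in LV, and 5811 to 6071 CPM in wildtype against 5138 to 5518 CPM in Otx2+/GFP. Ptprc, a marker of all leukocytes, was higher with the Cre-Tat label in LV (log2 fold change 1.36) and 4V (1.60). In 4V, Gfap of astrocytes (0.87) and endothelial Plvap (0.70) were also higher, and melanocyte Dct (-0.88) and neuronal Syt1 (-0.77) lower. Each was the only gene of its list called there, and each list held a gene of the other sign. These were glial Mbp (-0.05), endothelial Kdr (-0.18), melanocyte Pmel (1.07) and neuronal Stmn2 (0.08). In Otx2+/GFP, melanocyte Tyrp1 was higher (3.03), at 2.37 and 1.70 CPM against 0.26 and 0.22 CPM in wildtype. The 5 melanocyte markers summed to 84.1 CPM in Otx2+/GFP pool A and 5.4 CPM in pool B. In wildtype they summed to 14.1 and 10.1 CPM, so the list was higher in pool A only. The part of these markers in the values of Myo5b, Myrip, Tbc1d2, Tbc1d1 and Tbc1d9 was not tested.

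Of the Rab genes, or genes named after a Rab, 60 were tested in 4V, where 2 rose and 1 fell, with a median log2 fold change of 0.12. Of 61 tested in Otx2+/GFP 1 rose and none fell, with a median of 0.04. The shares of all genes called were 5.70% higher and 4.99% lower in 4V, and 1.79% and 1.74% in Otx2+/GFP. Rab30, a Golgi Rab, rose in 4V from 1.85 and 2.58 to 6.78 and 4.84 CPM (log2 fold change 1.40, SE 0.30, edgeR adjusted p = 0.0054). Higher values that missed the threshold stood at 4.74 and 2.52 against 1.48 and 1.69 CPM in LV (adjusted p = 0.11) and 4.14 and 3.44 against 1.83 and 2.02 CPM in Otx2+/GFP (adjusted p = 0.10). Rab12, which acts between recycling endosomes and lysosomes, rose in 4V from 44.1 and 45.5 to 63.9 and 59.5 CPM (log2 fold change 0.47, SE 0.13, edgeR adjusted p = 0.030). The call held under 6 of 12 alternatives. That call is lost by DESeq2 (adjusted p = 0.059) and without Cre-Tat pool A (0.10), vehicle pool A (0.23) or vehicle pool B (0.15). Rab34, which acts in Golgi positioning and in ciliogenesis, fell in 4V from 13.8 and 8.21 to 6.95 and 5.39 CPM (log2 fold change -0.84, SE 0.24, edgeR adjusted p = 0.032), and without vehicle pool A the value is -0.40 (adjusted p = 0.59). The call is also lost by DESeq2 (adjusted p = 0.078) and without Cre-Tat pool B (0.058), and held under 7 of 12 alternatives.

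Rab31, an endosomal relative of Rab5, was the only Rab called in Otx2+/GFP. It rose from 42.0 and 44.8 to 71.1 and 72.2 CPM (log2 fold change 0.73, SE 0.11, edgeR adjusted p = 0.0097), while in 4V it was 31.3 and 37.1 CPM with vehicle and 41.4 and 38.9 CPM with the Cre-Tat label (log2 fold change 0.24, SE 0.14, adjusted p = 0.36). The difference of the 2 responses was 0.50 (SE 0.18, adjusted p = 0.22).

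**Figure D4:**
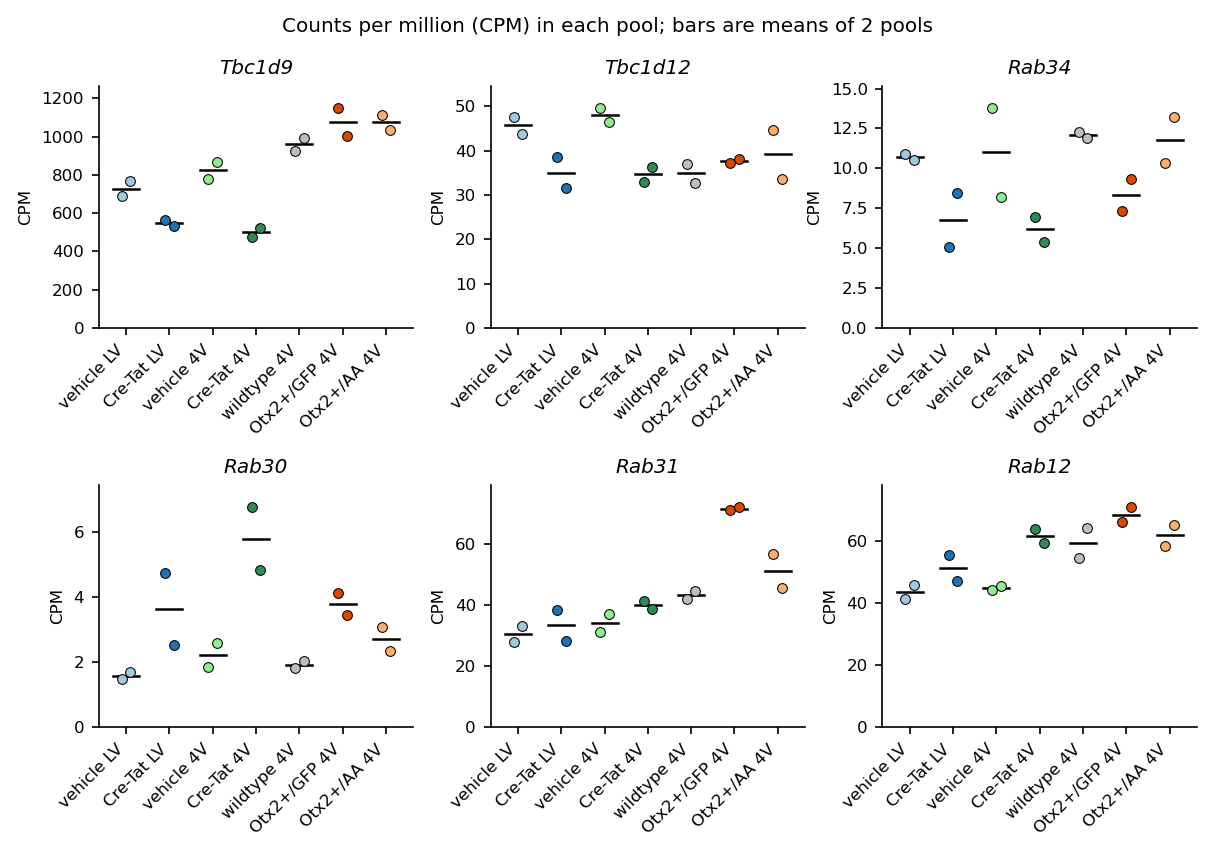
CPM in each pool (points) and the mean of the 2 pools (bars) for Tbc1d9, Tbc1d12, Rab34, Rab30, Rab31 and Rab12 in the 7 groups. Tbc1d9 is lower with the Cre-Tat label and not in Otx2+/GFP, and Rab31 reaches over 70 CPM in both Otx2+/GFP pools.

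The single member called in LV was Rab3c, a Rab of neuronal secretory vesicles, at 0.67 and 1.09 CPM with vehicle (14 and 22 counts) and 4.38 and 2.71 CPM with the Cre-Tat label (109 and 59 counts). Its log2 fold change was 2.01 (SE 0.41, edgeR adjusted p = 0.015), and the call is lost without Cre-Tat pool A (log2 fold change 1.63, adjusted p = 0.11). Beside it, of 4 neuronal markers 3 were tested in LV and 1, Snap25, was higher there, at 10.9 and 8.0 against 4.3 and 3.6 CPM, while Syt1 was at 9.9 and 9.7 against 11.6 and 12.9 CPM. The summed level of the 4 was 17.3 to 17.6 CPM with vehicle and 20.3 to 22.8 CPM with the Cre-Tat label, and its part in the Rab3c value was not tested. Rab6b, a Golgi Rab abundant in neurons, was the single member called in Otx2+/AA, at 0.68 and 1.18 CPM in wildtype (13 and 21 counts) and 5.53 and 3.02 CPM in Otx2+/AA (118 and 58 counts), a log2 fold change of 2.20 (SE 0.40, edgeR adjusted p = 0.037). Without Otx2+/AA pool A the value is 1.69 (adjusted p = 0.31), and the fit over all groups of the run also ends the call (0.084). The neuronal markers summed to 11.0 and 11.3 CPM in Otx2+/AA and 8.3 and 13.9 CPM in wildtype.

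By compartment, Rab genes passed the test singly. Over all genes tested, the shares called in either direction were 3.24% in LV, 10.7% in 4V and 3.53% in Otx2+/GFP. Of 7 early endosome Rabs tested, 1 rose in Otx2+/GFP (Rab31). Of 8 recycling Rabs, 1 rose in 4V (Rab12), and Rab11a, the Rab that binds Myo5b, had log2 fold changes of -0.05 (SE 0.17) in LV, -0.02 (SE 0.13) in 4V and 0.16 (SE 0.11) in Otx2+/GFP. Of 16 Rabs of the endoplasmic reticulum and Golgi, 1 rose (Rab30) and 1 fell (Rab34) in 4V. Of 10 exocytic and plasma membrane Rabs, Rab3c in LV was the only call, and Rab8a, Rab8b and Rab10 had log2 fold changes between -0.21 and 0.15 in LV, 4V and Otx2+/GFP. Rab27a and Rab27b, at 0.47 to 4.12 CPM over all pools, were called nowhere, with SE of 0.27 to 0.47 in LV, 4V and Otx2+/GFP. None of the 10 regulators and effectors named after a Rab were called by edgeR or DESeq2 in any comparison of 2 groups, with 1 or 2 at an unadjusted p under 0.05 in edgeR in each, Rab3gap1 among them at 123 to 159 CPM in every pool.

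Proteins that act on Rabs but carry other names were counted by class. Of 46 Rab effectors in the files, 4 rose and 4 fell in 4V among 43 tested, 2 rose and 1 fell in Otx2+/GFP among 45, and 1 rose in LV among 45. The shares of all genes were 5.70% higher and 4.99% lower in 4V, 1.79% and 1.74% in Otx2+/GFP, and 2.21% and 1.03% in LV. Rufy4, an effector of Rab7 that promotes autophagy in dendritic cells, rose in all 3, from 0.764 and 0.994 to 5.02 and 3.67 CPM in LV (log2 fold change 2.30, SE 0.36), from 1.33 and 1.11 to 7.16 and 9.32 CPM in 4V (2.74, SE 0.30) and from 27.6 and 32.1 to 74.8 and 68.5 CPM in Otx2+/GFP (1.27, SE 0.13). The study's own list of genes changed in these same samples also holds Rufy4 as higher. Sytl5, a Rab27 effector, fell in Otx2+/GFP from 4.59 and 4.16 to 0.908 and 0.514 CPM (log2 fold change -2.61, SE 0.35, edgeR adjusted p = 0.0050), while Sytl3, of the same family, rose from 3.39 and 4.22 to 8.68 and 7.81 CPM (log2 fold change 1.119, SE 0.21, edgeR adjusted p = 0.024). Bicdl1, a Rab6 effector that links vesicles to dynein, fell in 4V from 53.0 and 59.3 to 34.6 and 37.2 CPM (log2 fold change -0.64, SE 0.13, edgeR adjusted p = 0.0043).

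Among exchange factors, 1 of 32 tested in 4V rose, Dennd5a (log2 fold change 0.42, SE 0.13, edgeR adjusted p = 0.048), beside 5.70% of all genes called higher there. EdgeR called none of 33 in LV or in Otx2+/GFP, with 4 and 5 at an unadjusted p under 0.05. DESeq2 called none in LV, 4V or Otx2+/GFP. Of 8 other TBC domain proteins tested in 4V, 1 rose, Rabgap1l (log2 fold change 0.50, SE 0.16, edgeR adjusted p = 0.049). EdgeR called none of the 8 genes of Rab prenylation and none of the 9 exocyst subunits in any comparison of 2 groups, with at most 3 of each at an unadjusted p under 0.05, and DESeq2 called 1 exocyst subunit in Otx2+/GFP. Their median log2 fold changes lay between -0.05 and 0.18.

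LV and 4V ChP differed in these genes without any knockdown. Of 94 members tested between the vehicle pools, 1 was higher and 6 were lower in LV, or 7.45%, beside 7.49% of all genes called (3.49% higher, 4.00% lower in LV). Groups did not overlap for 50 members, or 53.2%, beside 53.7% of all genes. These vehicle pools are also the controls of both Cre-Tat comparisons, and whether LV and 4V pools of the same letter came from the same mice is not stated. Tbc1d1 had the largest difference, at 30.1 and 15.1 CPM in LV and 237.6 and 248 CPM in 4V, a 10.7-fold lower level in LV (log2 fold change -3.42, SE 0.24, edgeR adjusted p = 2.7e-06). The pools labelled Cre-Tat, which the test did not use, were apart in the same way, at 15.2 and 17.1 CPM in LV and 165 and 183 CPM in 4V. All 6 transcripts of Tbc1d1 with a mean over 10 counts were lower in LV, but they share reads and are not separate evidence.

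Tbc1d8, a TBC protein of little-known substrate, was at 10.4 and 10.1 CPM in LV and 35.9 and 39.7 CPM in 4V (log2 fold change -1.88, SE 0.14, edgeR adjusted p = 5.5e-06), and at 9.31 to 10.1 CPM and 26.9 to 33.7 CPM in the pools labelled Cre-Tat. Rab38, a Rab of melanosomes and other lysosome-related organelles, was at 5.49 and 6.27 CPM in LV and 14.2 and 16.9 CPM in 4V (log2 fold change -1.40, SE 0.19, edgeR adjusted p = 0.00049). The 5 melanocyte markers summed to 13.5 to 13.9 CPM in these LV pools and 10.3 to 10.6 CPM in these 4V pools. In Otx2+/GFP pool A they summed to 84.1 CPM and in pool B to 5.4 CPM, where Rab38 was at 20.6 and 21.0 CPM.

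Myo5b was the only member higher in LV, at 216 and 230 CPM against 137 and 140.1 CPM (log2 fold change 0.68, SE 0.11, edgeR adjusted p = 0.0028), while Myo5c was lower, at 60.8 and 65.1 against 89.0 and 84.8 CPM (log2 fold change -0.47, SE 0.12, edgeR adjusted p = 0.026). Tbc1d2, at 47.0 and 44.8 against 69.6 and 68.1 CPM (log2 fold change -0.59, SE 0.12, edgeR adjusted p = 0.0082), was also lower in LV. Tbc1d24, a TBC protein of synaptic vesicle traffic, was at 22.6 and 19.5 against 28.0 and 31.9 CPM (log2 fold change -0.51, SE 0.14, edgeR adjusted p = 0.050). The Myo5c call is lost without any 1 of the 4 pools (adjusted p = 0.059 to 0.13), that of Tbc1d2 without vehicle 4V pool A (0.053) or B (0.053), and that of Tbc1d24 without vehicle 4V pool A (0.078), vehicle 4V pool B (0.29) or vehicle LV pool B (0.29). DESeq2 (adjusted p = 0.11), the fit of all groups (0.091) and summed transcripts (0.062) also end the Tbc1d24 call. In all, the calls of Myo5c, Tbc1d2 and Tbc1d24 held under 6, 9 and 6 of 12 alternatives. Endothelial Plvap and Pecam1, the stromal gene Dcn and macrophage Csf1r were higher in these LV pools, with endothelial markers summing to 134 to 161 CPM against 85.7 to 99.0 CPM, and their part was not tested.

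**Figure D5:**
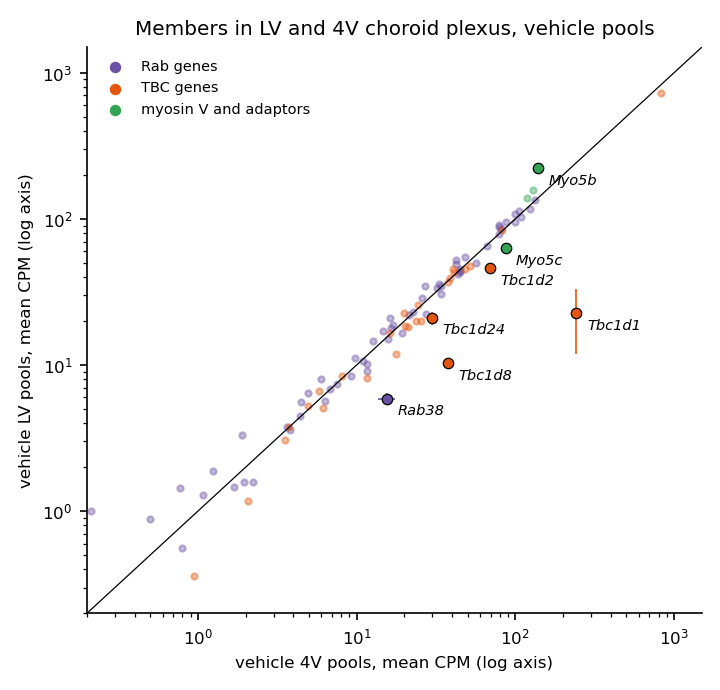
Mean CPM of each member tested in the vehicle pools of 4V (horizontal, log axis) and LV (vertical, log axis), with the line of equal level and SD over 2 pools for the 7 named members that passed the test. Tbc1d1, Tbc1d8 and Rab38 lie farthest below the line, and Myo5b is the only named point above it.

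The response to the Cre-Tat label was not found to differ between ventricles for any member. Of 96 tested, 0 were called by edgeR, beside 0.00643% of all genes, 0 had an unadjusted p under 0.05, and DESeq2 called 0 with 1 under an unadjusted 0.05. For Myrip and Tbc1d2 the 4V change minus the LV change was -0.36 (SE 0.19) and -0.25 (SE 0.23) on the log2 scale. Between models in 4V, 2 of 94 members were called, Myo5b and Tbc1d9 as given above, beside 1.61% of all genes (0.829% higher, 0.784% lower in the difference).

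The control pools of the 2 models differed for a pair of members. Of 88 members over 1 CPM in both vehicle and wildtype 4V pools, 2 were more than 2-fold apart, beside 8.64% of all genes. Rab15, a Rab of endosomes that is abundant in neurons, was 5.86-fold higher in vehicle pools, at 30.1 and 24.1 CPM against 4.91 and 4.33 CPM in wildtype, and no pool of the constitutive model passed 7.92 CPM while none of the conditional model was under 19.2 CPM. Rab7b, a late endosome Rab, was 2.98-fold higher in wildtype pools, at 4.38 and 6.92 CPM against 1.85 and 1.94 CPM. These values are a description, since strain and sequencing run differ between the models.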

How the data were processed

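Raw read counts per Ensembl transcript were deposited by the authors, 1 table for each of 22 files. The labels describe strand-specific libraries depleted of ribosomal RNA, while the paper's methods name PolyA+ RNA. The submitters' processing notes list bcl2fastq 1.8.4, Bowtie 0.12.9, SAMtools, HTSeq 0.5.3, DESeq 1.8.3 and mm10. The strand used in counting and the handling of reads that match several places are not given in the sources used here. Files of 1 library were summed, giving 14 pools. Of 95533 transcripts, 82807 matched GENCODE vM21 (89.5% of counts). Each gene was represented by the transcript with most counts over all files, so transcripts of a gene were not added. The wildtype mice were littermates of the Otx2+/GFP mice, but no source used here ties a pool letter to a litter. P values measure the spread between pools. The labels call A and B biological replicates, but for the constitutive model the paper does not state that each pool held separate mice.

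Each comparison was fitted alone with edgeR 4.0.16 (R 4.3.3) by the quasi-likelihood test with TMM scaling and filterByExpr, and p values were adjusted by Benjamini-Hochberg over all genes tested. Interactions used 4 groups. The code was tested on simulated data. DESeq2 1.42.0, other scalings and filters, a replicate block, summed transcripts, files as attached and leaving out each pool served as alternatives. Promoters were RefSeq windows. The members, gene lists and tests were chosen with earlier results of these data known. Named were the motors, adaptors and main compartment Rabs, the members called in several knockdown comparisons, in each comparison the 8 called members with the largest change and a mean over 10 counts, and the 10 with most counts per kb. From the other lists at most 4 called genes each were named. Rab12, Rab15, Rab7b and the promoter matches were named after their values were seen.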

Additional observations from a re-analysis of the deposited data

Results flagged for a closer look

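The change of Myo5b differed between the models in 4V ChP. The Otx2+/GFP log2 fold change minus that of the pools labelled Cre-Tat was -0.98 (SE 0.18, edgeR adjusted p = 0.016), with both Otx2+/GFP pools (37.7 and 31.8 CPM) below both Cre-Tat pools (63.1 and 73.2 CPM).

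For Tbc1d9 the same difference was 0.90 (SE 0.19, edgeR adjusted p = 0.033), with Tbc1d9 lower in both Cre-Tat pools than in both vehicle pools, and higher in both Otx2+/GFP pools than in both wildtype pools. The Otx2+/GFP difference by itself missed the threshold. The interaction calls of Myo5b and Tbc1d9 are each lost under some of the alternatives given above. In both cases the models differ in strain and sequencing run, and these cannot be told apart.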

How the results depend on the processing

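Outside the use of files as attached, 322 values kept their direction and their side of the threshold, 56 lost a call, 19 gained a call and 1 reversed. Calls of Myo5b, Myrip and Tbc1d2 in 4V and Otx2+/GFP, of Tbc1d1 in Otx2+/GFP and between ventricles, of Rab30 in 4V, of Rab31 in Otx2+/GFP, and of Myo5b, Tbc1d8 and Rab38 between ventricles held under all 12 other alternatives.

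In LV, where edgeR called 1 member, DESeq2 called 4, total counts 2, no filter 7 and a fit of all groups of the run 5. A fit of all groups called 5 in 4V, 4 between ventricles and 0 in Otx2+/AA, and summing transcripts called 0 in Otx2+/AA. Total counts left 1 member differing between models. That scaling shifted the all-gene median (log2) by 0.17 in LV, 0.14 in 4V, 0.12 in Otx2+/AA, -0.19 between ventricles and -0.12 for the model interaction. Leaving out 1 pool at a time gave 0 to 6 members in LV (0 without Cre-Tat A, 6 without Cre-Tat B, 2 without vehicle B), 5 to 11 in 4V (5 without vehicle A or B), 5 to 9 in Otx2+/GFP, 0 to 2 in Otx2+/AA (0 without Otx2+/AA A, 2 without wildtype B), 4 to 7 between ventricles (4 without vehicle 4V A or B), 0 for the ventricle interaction and 0 to 2 for the model interaction (0 without vehicle A, vehicle B or wildtype B). Tbc1d1 in LV ranged from -0.90 without vehicle B to 0.10 without vehicle A. A lone remaining pool was assumed to vary like the others.

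Pool letters were also used as a replicate block, although nothing states that they pair pools. The correlation of same-letter deviations was -0.13 in LV, 0.15 in 4V, 0.36 in Otx2+/GFP, 0.077 in Otx2+/AA and 0.075 between ventricles. The block gave 3 members in LV, 21 in 4V, 20 in Otx2+/GFP, 3 in Otx2+/AA, 10 between ventricles, 0 for the ventricle interaction and 2 for the model interaction. Crossing the letters in LV, an alternative chosen after seeing the data, gave 8.

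With files as attached, where pools A and B share libraries by construction, 51 members were called in LV, 53 in 4V, 29 between ventricles, 36 for the ventricle interaction and 25 for the model interaction. Log2 fold changes then reversed for Myo5b (1.00 in 4V, 0.86 in LV, -0.025 between ventricles), Myrip (0.63 in 4V, 0.39 in LV), Rab12 (-0.23), Rab30 (-0.92), Rab34 (0.57) and Tbc1d9 (0.0052) in 4V, and Rab38 (0.014) and Tbc1d2 (0.016) between ventricles. The other 14 of the 25 named differences kept their direction with files as attached, 5 of them losing the call and 4 gaining one. Apart from these constructions, the cause of the differences was not tested. Depth limits Rab3c, Rab6b, Rab27a and Rab27b, whose pools hold few counts.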
